A study of Mus musculus with 10 samples.

Results

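The amino acid transporters of the mouse pancreas were examined in control and DKO animals. The set comprised every gene whose symbol on the array begins with Slc1a, Slc3a, Slc6a, Slc7a, Slc36a, Slc38a or Slc43a followed by a digit, which gave 64 of the 19938 genes measured. Of these, 21 belonged to the Slc6 family, 16 to Slc7, 11 to Slc38, 7 to Slc1, 4 to Slc36, 3 to Slc43 and 2 to Slc3. The choice rested on names alone, and 2 of the 64, Slc6a19os and Slc7a6os, are transcripts or genes named for lying opposite a carrier and are not themselves carriers.

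The samples were total RNA of whole pancreas on 10 Affymetrix Mouse Gene 1.0 ST arrays, 5 from mice labelled control and 5 from mice labelled DKO, and all mice had a mixed background. The control genotype is given only as the word control. DKO mice carried PDX1Cre, Mst1-/- and Mst2L/L, so the hippo kinase MST1 was lost through an allele written as null, and MST2 through a floxed allele in cells in which Cre acts under the promoter of Pdx1, a gene of pancreatic progenitors. Ages are not given, and the labels do not state that each array holds a different animal. The p-values therefore reflect variation among these arrays, which may be technical.

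Amino acid carriers are membrane proteins that move amino acids, and in some families related molecules such as creatine, taurine or neurotransmitters, across the plasma membrane or the membranes of lysosomes and vesicles. Acinar cells, the enzyme-secreting majority of pancreatic cells, have a very high rate of protein synthesis and take up amino acids accordingly. When amino acids run short, the kinase GCN2 phosphorylates eIF2, translation of the transcription factor ATF4 rises, and ATF4 switches on several of the carriers described here.

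Levels are log2 intensities, and a change is the DKO mean minus the control mean on that scale. Over the genes tested, the median of an array lay between 7.55 and 7.59 for control and between 7.56 and 7.63 for DKO. Stk4, which encodes MST1, gave no check of the labels. It read 5.01 to 5.23 on control and 5.07 to 5.21 on DKO arrays, within the range of silent genes described below. Stk3, which encodes MST2, was not found under that symbol among the genes tested. To mark levels that cannot be told from background, 1194 olfactory and vomeronasal receptor genes were taken as silent in pancreas. In 95% of them the mean level lay under 6.06. In both groups 15 of the 64 members also lay under 6.06, and 49 lay above it in at least 1 group. Brightness depends on the probes of each gene, so levels are compared between arrays and not between genes. The markers of the tissue were in place, with 12 measured acinar genes averaging 11.92 to 12.54 per array. Markers of other tissue stood apart in some arrays: the mean of 17 hepatocyte genes was 10.64 in DKO replicate 1 and 6.33 to 7.16 in the other 9 arrays, and that of 9 adipocyte genes was 9.44 in DKO replicate 2 and 7.42 to 8.83 elsewhere.

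The comparison asked whether loss of both kinases changed the carriers' transcripts. Most carriers measured differed little between the groups. Of the 64 members 1 fell, Slc38a10, and none rose past an adjusted p of 0.05 (limma, adjusted over all genes tested). Over all genes 2.44% passed, 2.08% higher and 0.366% lower. At an unadjusted p of 0.05 there were 9 members by limma, 2 higher and 7 lower, against 9.18% higher and 5.66% lower of all genes. The changes of the 64 ran from -0.41 (Slc7a11) to 0.47 (Slc6a13). The 95% confidence interval of the change lay within 0.5 of zero in 55 members, or 85.9%, and in 89.6% of all genes. For those 55 a change of 0.5 or more lies outside the interval. They include all 15 members within the silent range, where a change of the transcript might not show. Of the 49 members above that range the interval was as narrow in 40 (81.6%), against 87.5% of all genes above it. The point estimate was negative in 42 members (65.6%) and in 52.4% of all genes, and the median change was -0.067 over the members and -0.006 over all genes. After subtraction of array medians, which shifts all genes down, 47 members and 64.9% of all genes had a negative estimate. Among the genes called in all, 414 were higher and 73 lower, or 271 and 103 after subtraction of array medians.

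**Figure D1:**
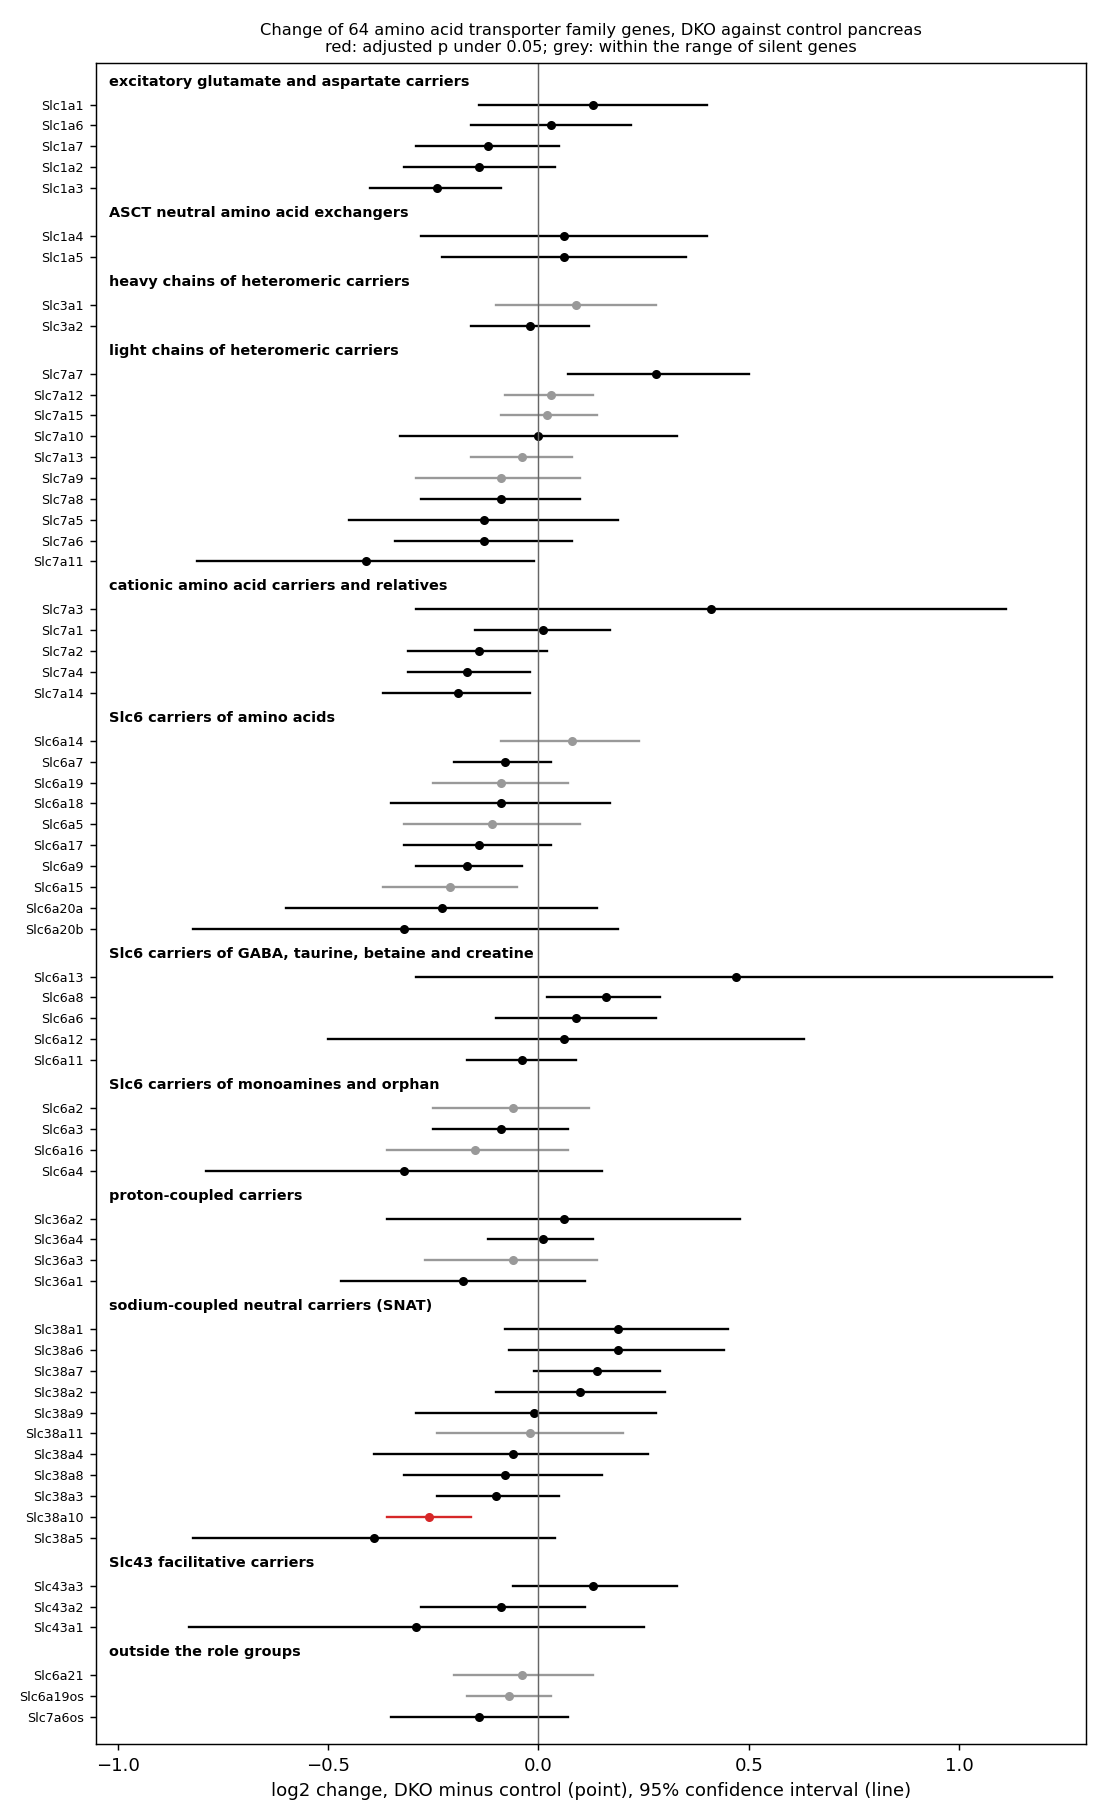
Log2 change of each of the 64 genes (horizontal axis, DKO minus control, n = 5 each) with its 95% confidence interval, grouped by the role of the carrier; red marks an adjusted p under 0.05 and grey marks genes within the range of silent genes. Slc38a10 (-0.26) is the only red point, and the widest intervals belong to Slc6a13, Slc7a3, Slc6a12, Slc43a1 and Slc6a20b.

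Slc38a10 belongs to the sodium-coupled neutral amino acid transporters, the SNAT family, and its product moves glutamine, glutamate and alanine among others. In order of replicate number, its level was 9.94, 9.82, 9.91, 9.87 and 9.97 in control and 9.63, 9.64, 9.63, 9.58 and 9.72 in DKO. Every DKO array lay below every control array. The mean fell from 9.90 ± 0.06 to 9.64 ± 0.05 (SD, n = 5 each), a change of -0.26 ± 0.05 (SE; limma adjusted p = 0.0144), so that the linear intensity fell by 16.6%. Over all genes, 1.28% had all DKO arrays below all control arrays, and 3.52% had them all above, as 0 members did. The small spread of this gene, 0.05 within groups against a median of 0.148 over the members, set it apart from carriers with larger estimated differences. Its adjusted p was at most 0.0433 without any 1 array and 0.0678 without control replicate 2 and DKO replicate 4 together, where the change was -0.27. The call also ended in the fit blocked by replicate number, although same-numbered arrays share only a number.

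Cell type marker means also differed between the groups, with ranges that overlapped for islet genes and nearly met for acinar genes. The mean of 13 islet genes was 10.20 to 10.45 in control and 10.04 to 10.21 in DKO, that of the 12 acinar genes was 12.37 to 12.54 and 11.92 to 12.36, and that of 10 duct genes was 9.74 to 9.83 and 10.09 to 10.23. Of the islet genes 0 passed by limma (5 at an unadjusted p of 0.05, all lower). Of the acinar genes 1 passed and was lower (4 at an unadjusted p of 0.05, all lower), and of the duct genes 3 passed and were higher. Over all genes 0.366% passed and were lower, and 2.08% passed and were higher. The duct genes did not all move together, with a positive estimate in 7 and a negative one in 3. At an unadjusted p of 0.05, 6 duct genes were higher and 1 was lower. The lower gene was Sox9 (change -0.26), with every DKO array below every control array. Their part in the change of Slc38a10 was not tested. In whole tissue, fewer cells of a type and less RNA per cell cannot be told apart.

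The 250 bases before the annotated start of Slc38a10, from RefSeq on GRCm38.p6 at chr11:120151352-120151601 (minus strand), are shown because it is the 1 member that passed the test. Neither of the motifs searched was in its window: the core of the TEAD factors through which YAP and TAZ bind DNA, GGAATG, or the core of the element bound by ATF4 with C/EBP proteins, TGATGNAA, on both strands.
Slc38a10: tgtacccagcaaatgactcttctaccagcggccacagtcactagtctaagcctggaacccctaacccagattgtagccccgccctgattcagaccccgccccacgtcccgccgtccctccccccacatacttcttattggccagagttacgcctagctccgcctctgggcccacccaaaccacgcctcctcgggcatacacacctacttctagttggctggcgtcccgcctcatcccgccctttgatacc
The table held 68 windows of 300 bases (250 before to 50 after a start) for 47 of the 64 members. The TEAD core was in 12 of the 68 windows (17.6%), those of 11 members, and in 14.7% of all 32851 windows. The ATF4 core was in 5 of the 68 windows (7.35%), those of 4 members, and in 3.97% of all windows. A match describes the letters only.

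Among the other SNAT genes the estimates ran from -0.39 to 0.19. Slc38a5, the glutamine carrier SNAT5 of exocrine pancreas, was 10.09, 10.83, 10.84, 10.66 and 10.30 in control and 10.36, 10.21, 10.25, 9.51 and 10.45 in DKO. The groups overlapped, and control replicate 1 lay below 4 of the 5 DKO arrays. The change was -0.39 ± 0.19 (SE, adjusted p = 0.386), with an interval from -0.82 to 0.04. Without DKO replicate 4 it was -0.23 (adjusted p = 0.614). Slc38a3, the glutamine carrier SNAT3, ranged over 11.77 to 12.06 in the 10 arrays, with a change of -0.10 (interval -0.24 to 0.05). Slc38a2, the carrier SNAT2 that cells make when amino acids are scarce, was 11.33 ± 0.19 in control and 11.44 ± 0.10 in DKO (SD, n = 5 each). Slc38a1, the glutamine carrier SNAT1, was 9.85, 9.34, 9.41, 9.39 and 9.81 in control and 9.65, 9.61, 9.65, 10.01 and 9.83 in DKO (change 0.19 ± 0.12 SE, adjusted p = 0.496). Slc38a6 was 8.18, 8.37, 8.25, 8.48 and 8.35 in control and 8.35, 8.97, 8.44, 8.34 and 8.46 in DKO (change 0.19 ± 0.12 SE, adjusted p = 0.483). The groups overlapped in both genes, and the estimate for Slc38a6 was 0.07 without DKO replicate 2, its highest array. Slc38a9, the lysosomal arginine sensor of the kinase complex mTORC1, was 8.77 in both groups. Slc38a7 differed by 0.14 and Slc38a8 by -0.08, neither past the test, and Slc38a11 lay within the range of silent genes.

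The heteromeric carriers consist of a heavy chain, which takes the complex to the membrane, and a light chain, which transports. Slc3a2, the heavy chain CD98, was 12.30, 12.02, 12.23, 12.14 and 12.14 in control and 12.25, 12.11, 12.04, 12.20 and 12.12 in DKO. The arrays of both groups covered the same narrow range, and the interval of the change ran from -0.16 to 0.12. Slc3a1, the heavy chain rBAT of kidney and gut, was 5.91, 5.93, 6.01, 6.06 and 5.84 in control and 6.06, 6.31, 6.01, 6.03 and 5.79 in DKO. Both group means lay within the range of silent genes, as did those of Slc7a9, the light chain that pairs with it.

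Of the 10 light chains 0 passed by limma, and 2 differed at an unadjusted p of 0.05, in opposite directions, where 14.8% of all genes did. Slc7a7, the y+LAT1 chain that exports cationic amino acids, was 7.63, 7.73, 7.39, 7.76 and 7.45 in control and 7.97, 8.06, 7.63, 7.79 and 7.92 in DKO. Only DKO replicate 3 lay inside the control range. The change was 0.28 ± 0.10 (SE, adjusted p = 0.197). Slc7a7 is also made by macrophages, whose 10 markers averaged 9.01 to 9.49 in control and 9.0 to 9.44 in DKO. These markers were mixed, with a positive estimate in 8 and a negative one in 2. At an unadjusted p of 0.05 by limma 3 were higher and 1 was lower, and 0 passed. The part of macrophages in the change of Slc7a7 was not tested. Slc7a11, the cystine and glutamate exchanger xCT that supplies cysteine for glutathione, was 9.83, 9.01, 9.30, 9.01 and 8.88 in control and 8.54, 8.71, 8.59, 9.02 and 9.13 in DKO. Control replicate 1 stood above the rest, and DKO replicates 4 and 5 lay inside the control range. The change of -0.41 ± 0.18 (SE, adjusted p = 0.325) was -0.25 without control replicate 1.

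Slc7a5, the LAT1 chain for large neutral amino acids such as leucine, was 12.23, 11.64, 12.03, 11.62 and 12.02 in control and 11.80, 11.39, 11.81, 12.10 and 11.79 in DKO. Its groups overlapped widely, and the interval of its change was -0.45 to 0.19. Slc7a8, the LAT2 chain, was 10.91 ± 0.18 and 10.82 ± 0.09 (SD, n = 5 each), with an interval of -0.28 to 0.10, and Slc7a6, the y+LAT2 chain, differed by -0.13 (interval -0.34 to 0.08). Slc7a12, Slc7a13 and Slc7a15 lay within the range of silent genes.

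**Figure D2:**
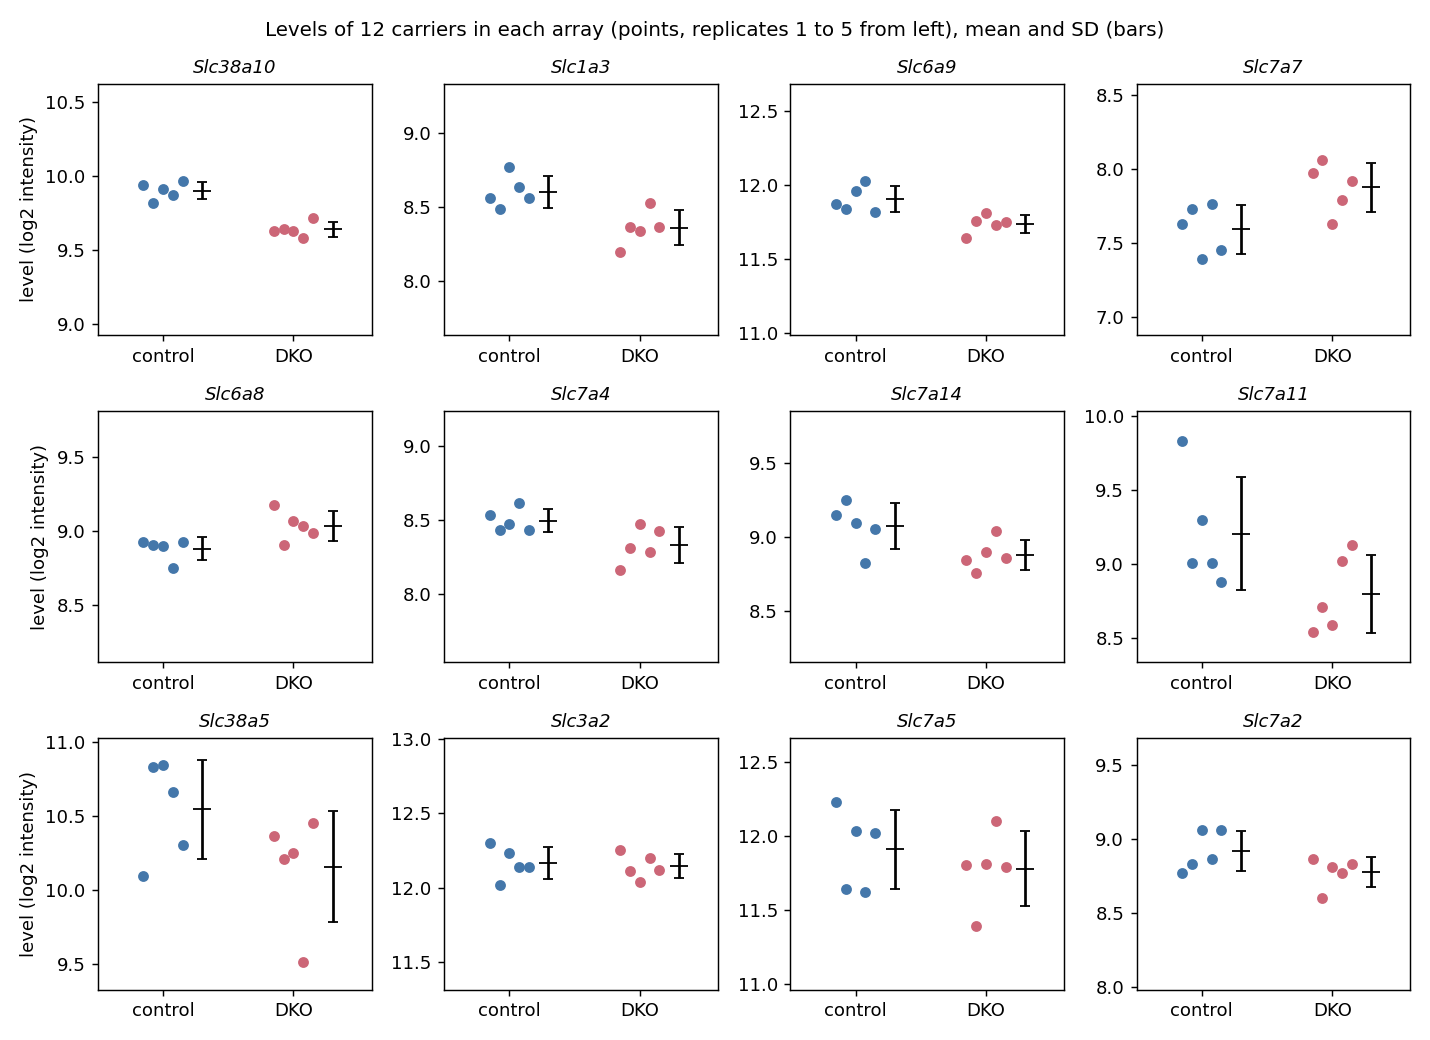
Level (vertical axis, log2 intensity, each panel spanning the same height) of 12 carriers in the 5 control and 5 DKO arrays, with the mean and SD of each group beside the points. The groups are apart in Slc38a10 and, by a small gap, in Slc6a9, and overlap in the other panels.

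The cationic amino acid carriers bring arginine, lysine and ornithine into cells. Slc7a1, the widely expressed CAT1, was 10.07 ± 0.12 in control and 10.08 ± 0.12 in DKO (SD, n = 5 each), with an interval of -0.15 to 0.17. Slc7a2, the CAT2 carrier, was 8.77, 8.83, 9.06, 8.86 and 9.06 in control and 8.86, 8.60, 8.81, 8.77 and 8.83 in DKO. Its groups overlapped, and the change was -0.14 ± 0.07 (SE, adjusted p = 0.405). Slc7a4, a relative of the cationic carriers, was 8.53, 8.43, 8.47, 8.61 and 8.43 in control and 8.16, 8.31, 8.47, 8.28 and 8.42 in DKO, with DKO replicate 3 inside the control range (change -0.17 ± 0.07 SE, adjusted p = 0.277). Slc7a14, another relative, differed by -0.19 (adjusted p = 0.296).

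Slc7a3, the CAT3 carrier, was 9.45, 7.48, 7.90, 8.06 and 8.49 in control and 8.70, 8.42, 8.52, 9.28 and 8.5 in DKO. The control arrays alone covered the whole range, and every DKO array lay within it. The change was 0.41 ± 0.32 (SE, adjusted p = 0.577). Leaving out 1 array gave 0.21 (without control replicate 2) to 0.70 (without control replicate 1). The adjusted p was then 0.160 to 0.824.

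The Slc1 family holds the sodium-driven glutamate carriers and a pair of neutral amino acid exchangers. Slc1a3, the glutamate and aspartate carrier GLAST, was 8.56, 8.49, 8.77, 8.64 and 8.56 in control and 8.20, 8.37, 8.34, 8.53 and 8.37 in DKO. Of the DKO arrays only replicate 4 reached the control range. Its change of -0.24 ± 0.07 (SE) had the second smallest p of the members (unadjusted 0.00576) and did not pass (adjusted p = 0.121). Over the alternatives its adjusted p was 0.0662 to 0.273. The other glutamate carriers Slc1a1, Slc1a2, Slc1a6 and Slc1a7 lay at 5.79 to 6.50, close to the limit of the silent range, and differed by 0.13, -0.14, 0.03 and -0.12. Slc1a5, the glutamine exchanger ASCT2, was 10.81, 10.05, 10.46, 10.64 and 10.66 in control and 10.38, 10.49, 10.58, 10.79 and 10.69 in DKO, so every DKO array lay inside the control range. It differed by 0.06 (adjusted p = 0.856), as did Slc1a4, the serine and alanine exchanger ASCT1 (adjusted p = 0.882). Both estimates turned negative without control replicate 2.

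Among the Slc6 carriers of amino acids, Slc6a9, the glycine carrier GlyT1, was 11.87, 11.84, 11.96, 12.03 and 11.82 in control and 11.64, 11.76, 11.81, 11.73 and 11.75 in DKO. The groups did not overlap, but the highest DKO array and the lowest control array nearly met, at 11.81 and 11.82. The change of -0.17 ± 0.06 (SE) did not pass (adjusted p = 0.182). Slc6a9 and Slc38a10 were the 2 members whose groups did not overlap, both with DKO below, against 4.80% of all genes in either direction. Slc6a15, a carrier of branched-chain amino acids, was at a change of -0.21 (adjusted p = 0.207) with levels of 5.09 to 5.59, within the range of silent genes. Slc6a20b, a carrier of proline and other imino acids, was 6.74, 7.01, 7.44, 7.99 and 7.1 in control and 6.96, 7.34, 6.99, 6.37 and 7.06 in DKO. Its neighbour and close relative Slc6a20a, with which it may share signal, was 7.88 in control replicate 4 and 6.79 to 7.23 in the other 9 arrays. Both were highest in control replicate 4. Without that array the change of Slc6a20b was -0.13 in place of -0.32 and that of Slc6a20a was -0.06 in place of -0.23, and none of these passed. Slc6a7 and Slc6a18 lay at the limit of the silent range, at 5.97 to 6.19 and 5.83 to 6.49, Slc6a17, a vesicular carrier of neurons, differed by -0.14, and Slc6a5, Slc6a14 and Slc6a19 lay within the silent range.

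The Slc6 family also carries molecules other than protein-forming amino acids. Slc6a8, the creatine carrier, was 8.93, 8.91, 8.90, 8.75 and 8.93 in control and 9.18, 8.91, 9.07, 9.04 and 8.99 in DKO. Of the DKO arrays only replicate 2 lay within the control range, and the change was 0.16 ± 0.06 (SE, adjusted p = 0.262). Slc6a6, the taurine carrier, was 10.04 ± 0.15 and 10.14 ± 0.13 (SD, n = 5 each). Slc6a11, a GABA carrier of glia, differed by -0.04 at levels of 6.06 to 6.31. Slc6a4, the serotonin carrier, was 9.17, 8.37, 8.65, 8.56 and 8.78 in control and 8.11, 7.73, 8.56, 8.82 and 8.73 in DKO. Its groups overlapped, and the change was -0.32 ± 0.21 (SE, adjusted p = 0.524). Slc6a16, an orphan carrier with the smallest p of the monoamine and orphan group, was 5.33, 5.51, 5.57, 5.52 and 5.47 in control and 5.43, 5.43, 5.59, 5.13 and 5.08 in DKO. These levels are within the silent range (adjusted p = 0.510), as were those of Slc6a21 and the noradrenaline carrier Slc6a2, and the dopamine carrier Slc6a3 differed by -0.09 at 6.55 to 6.94.

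The carriers Slc6a12 and Slc6a13, which take up betaine and GABA, are neighbouring genes that are active in liver. Slc6a13 was 6.48, 6.45, 6.51, 6.49 and 6.50 in control and 8.48, 7.0, 6.40, 6.39 and 6.49 in DKO. Slc6a12 was 6.34, 6.40, 6.64, 6.65 and 6.41 in control and 7.68, 6.37, 6.50, 6.08 and 6.13 in DKO. Both stood highest in DKO replicate 1, the array with the high hepatocyte genes. Without that array the change of Slc6a13 was 0.09 in place of 0.47 (adjusted p = 0.707 in place of 0.551), and that of Slc6a12 was -0.22 in place of 0.06 (adjusted p = 0.332 in place of 0.925). Slc38a4, the SNAT4 carrier abundant in liver, was also highest in DKO replicate 1, at 10.61 against 9.70 to 10.40 in the other 9 arrays. DKO replicate 2, where Slc6a13 was 7.0, had a hepatocyte mean of 6.45, within the range of the other arrays.

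A similar arrangement held for fat. Slc7a10, the light chain Asc1 found on fat cells, was 7.77, 7.80, 7.63, 7.81 and 7.88 in control and 7.46, 8.38, 7.58, 7.90 and 7.57 in DKO. Slc36a2, a proton-coupled carrier also found on fat cells, was 6.70, 6.88, 6.72, 6.74 and 6.78 in control and 6.52, 7.65, 6.48, 6.86 and 6.60 in DKO. Both stood highest in DKO replicate 2. The lowest array was DKO replicate 1 for Slc7a10 and DKO replicate 3 for Slc36a2, where the adipocyte mean was 7.73 and 7.42. Without DKO replicate 2 the change of Slc7a10 was -0.15 in place of -0.0014, and that of Slc36a2 was -0.15 in place of 0.06. Of the adipocyte genes 0 of 9 passed by limma (0 at an unadjusted p of 0.05), as did 0 of the 17 hepatocyte genes (0 at an unadjusted p of 0.05), and the part of either tissue in these carriers was not tested.

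Among the facilitative carriers, Slc43a1, the LAT3 carrier of large neutral amino acids, abundant in pancreas and also made in red cell precursors, was 8.83, 8.06, 8.36, 9.45 and 8.09 in control and 8.21, 8.36, 7.89, 8.5 and 8.36 in DKO. Control replicates 4 and 1 stood highest. The change of -0.29 ± 0.24 (SE, adjusted p = 0.608) was -0.07 without control replicate 4. The red cell genes Alas2 and Slc4a1, the only ones measured of 6 listed, were also highest in these arrays, at 10.48 and 11.42 in control replicate 4 and 10.25 and 11.03 in control replicate 1, against 8.83 to 9.78 and 8.75 to 10.02 in the others. Their part was not tested. Slc43a3, a carrier of nucleobases, was 11.01, 10.91, 10.86, 10.99 and 10.75 in control and 11.04, 10.97, 10.99, 11.34 and 10.85 in DKO, with overlap (change 0.13 ± 0.09 SE, adjusted p = 0.512). Slc43a2, the LAT4 carrier, differed by -0.09. Of the proton-coupled carriers, Slc36a1, the lysosomal carrier PAT1, was 9.94, 9.57, 9.50, 9.46 and 9.36 in control and 9.17, 9.30, 9.30, 9.81 and 9.35 in DKO (change -0.18 ± 0.13 SE, adjusted p = 0.556). Its highest arrays were control replicate 1 and DKO replicate 4. Slc36a4 differed by 0.01 (interval -0.12 to 0.13), and Slc36a3 lay within the silent range.

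**Figure D3:**
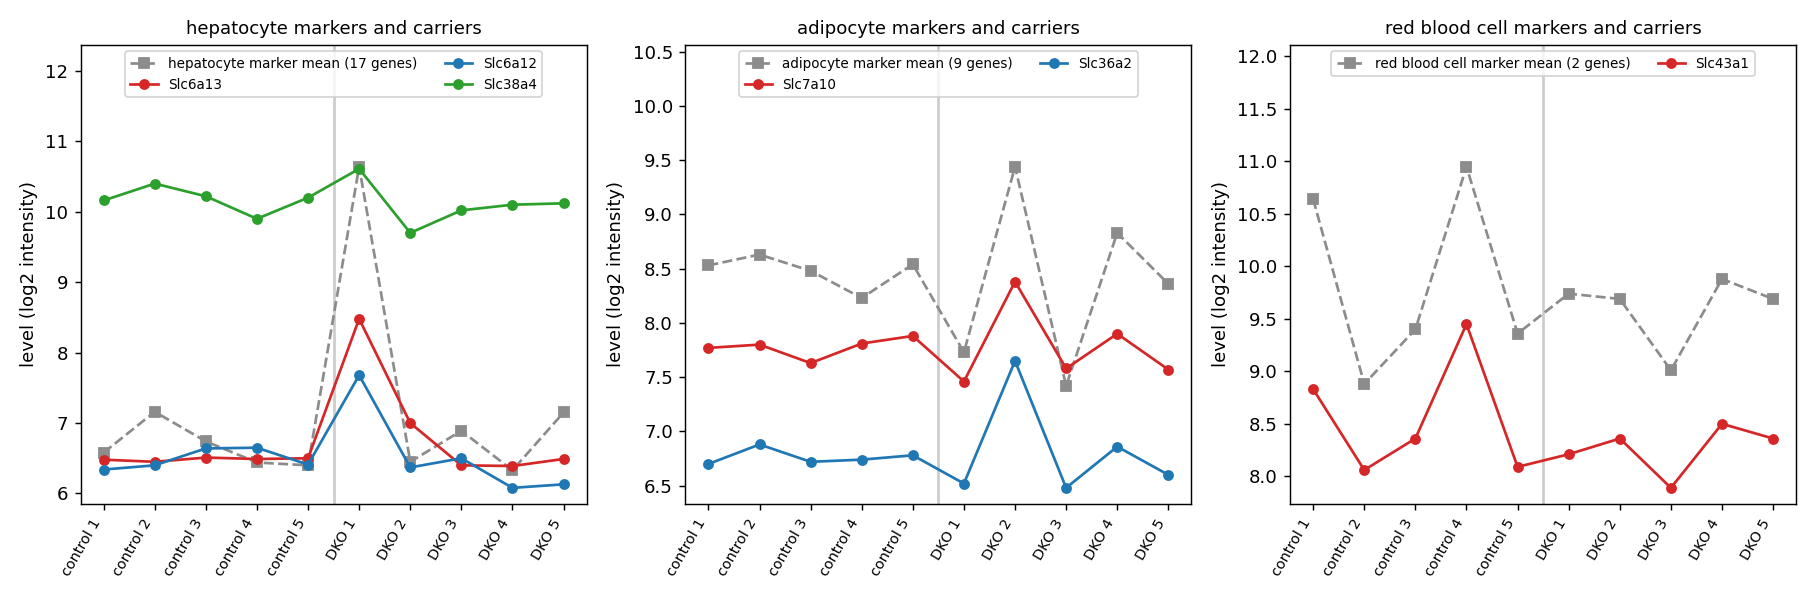
Level (vertical axis, log2 intensity) of carriers in each of the 10 arrays (horizontal axis), with the mean of the hepatocyte, adipocyte or red cell markers as a dashed line; levels are to be compared between arrays and not between genes. Slc6a13 and Slc6a12 peak with the hepatocyte mean in DKO replicate 1, Slc7a10 and Slc36a2 with the adipocyte mean in DKO replicate 2, and Slc43a1 with the red cell mean in control replicate 4.

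Several carriers that ATF4 is known to switch on varied between arrays within both groups. The mean of 26 ATF4 pathway genes, none of them a member, was 9.65, 9.05, 9.24, 9.25 and 9.23 in control and 9.41, 9.29, 9.36, 9.62 and 9.40 in DKO. Control replicate 1 and DKO replicate 4 were the highest of their groups. For each of the 64 members, the deviation of the 10 arrays from their group mean was set against the same deviation of the ATF4 mean. By Pearson's r, Slc7a3 followed it most closely, at r = 0.95 (permutation p = 0.00031, adjusted over 64 members 0.0198). Its Spearman's rho was 0.71 (permutation p = 0.0269, adjusted 0.325). Without control replicate 1 and DKO replicate 4, the arrays farthest from the median, r was 0.75. Slc7a3 was the 1 member past the adjusted threshold for r, by a two-sided permutation test, and no member passed for rho. The highest rho was 0.83, for Slc3a2 (permutation p = 0.0047, adjusted 0.301). At an unadjusted p of 0.05 for r there were 16 members, in both directions. Of these, Slc36a3 (-0.80), Slc38a5 (-0.76), Slc1a7 (-0.74), Slc6a2 (-0.69) and Slc6a19 (-0.63) had a negative r, and the others a positive one. Only members were permuted, so no share of all genes stands beside this count.

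An r above 0.7 was seen in 9 members, or 14.1%, and in 2.16% of all genes outside the ATF4 list, members included. Besides Slc7a3 they were Slc38a2 (0.79), Slc7a5 (0.78), Slc3a2 (0.77), Slc7a11 (0.77), Slc36a1 (0.77), Slc1a5 (0.76), Slc38a1 (0.76) and Slc6a4 (0.74). Their permutation p-values for r were 0.00351 to 0.0214, or 0.0737 to 0.114 adjusted over the 64 members. Their rho was 0.27 (Slc36a1) to 0.83 (Slc3a2). Without the 2 farthest arrays r was 0.72 for Slc3a2 and 0.73 for Slc1a5, 0.57 for Slc7a5 and 0.52 for Slc6a4, but 0.39 for Slc38a1, 0.38 for Slc38a2, 0.23 for Slc7a11 and -0.55 for Slc36a1, so the relation of these last 4 carriers rested on control replicate 1 and DKO replicate 4. In the opposite direction r was below -0.7 in 3 members, or 4.69%, and in 3.18% of all genes outside the ATF4 list. The relation was looked for after the levels of these carriers had been seen.

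The promoter of Slc7a11 is shown because its window holds the ATF4 core 2 times, in capitals: TGATGCAA beginning 66 bases and TTGCATCA, the same core on the other strand, beginning 47 bases before the start (RefSeq, GRCm38.p6, chr3:50443614-50443863, minus strand).
Slc7a11: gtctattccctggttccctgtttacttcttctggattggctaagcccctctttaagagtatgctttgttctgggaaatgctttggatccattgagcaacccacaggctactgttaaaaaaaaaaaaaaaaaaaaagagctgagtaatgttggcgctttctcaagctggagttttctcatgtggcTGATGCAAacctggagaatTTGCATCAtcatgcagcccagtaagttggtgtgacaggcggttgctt
The other 3 members with the core were Slc1a4, whose r was 0.68 and whose TTGCATCA begins 4 bases before the start, Slc7a7, with 2 distinct matches over its overlapping windows and an r of -0.14, and Slc6a21, with an r of -0.44. No match to the ATF4 core was found in the windows of Slc3a2, Slc36a1, Slc38a2 and Slc6a4. Slc7a3, Slc7a5, Slc1a5 and Slc38a1 were not among the 47 members matched.

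**Figure D4:**
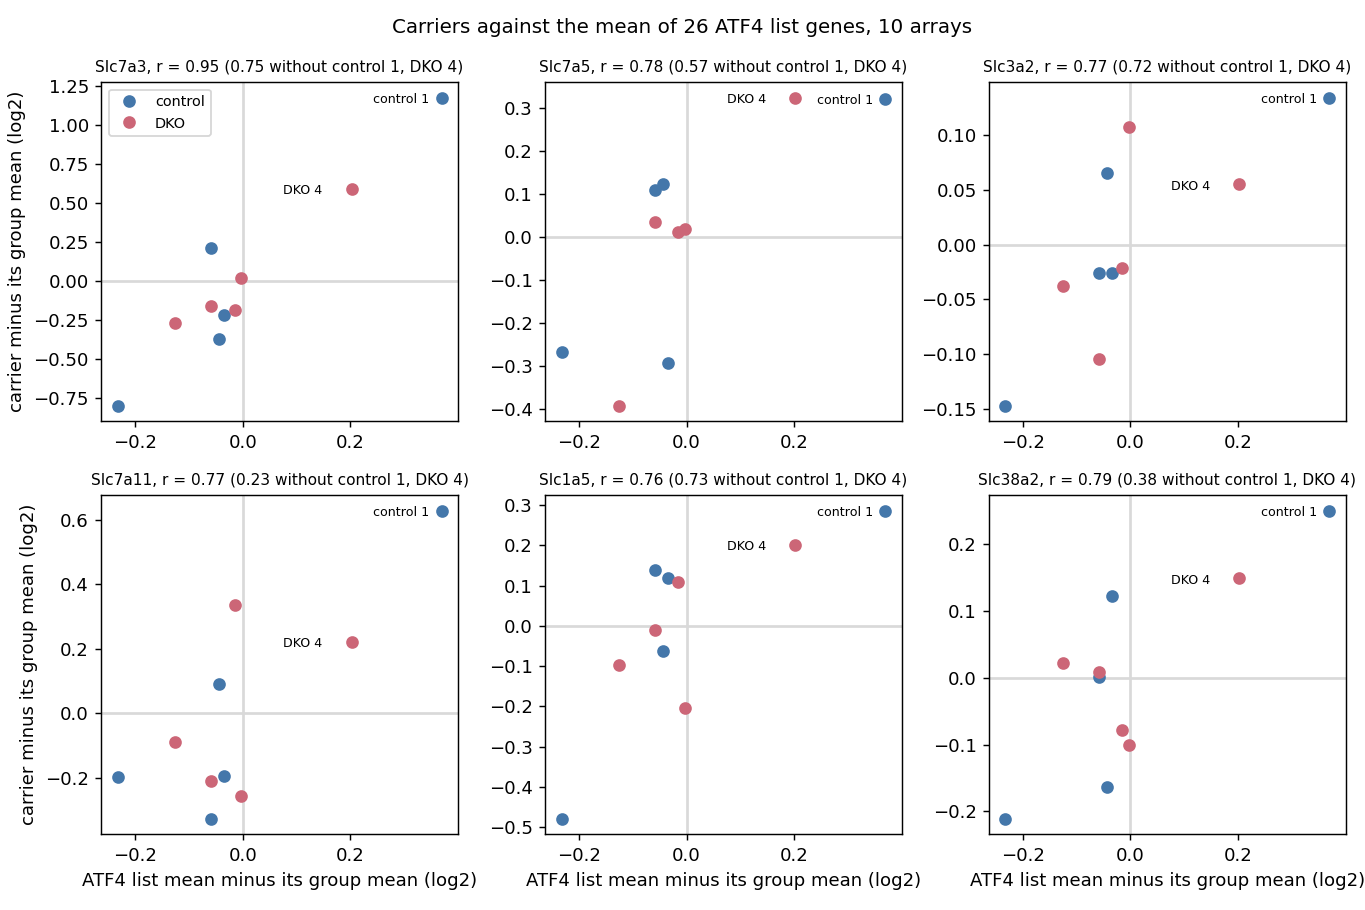
Deviation of 6 carriers from their group mean (vertical axes, log2, scaled per panel) against the deviation of the mean of 26 ATF4 pathway genes (horizontal axis, log2) in 5 control and 5 DKO arrays, with Pearson's r. Control replicate 1 and DKO replicate 4 lie at the right of each panel, and r falls to 0.23 for Slc7a11 and stays at 0.75 for Slc7a3 without them.

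The other genes of amino acid supply and sensing were taken from 6 lists. Of 118 measured genes in these lists 3 were higher and 0 lower (limma, 10 higher and 10 lower at an unadjusted p of 0.05), with a median change of -0.026. The share called, 2.54%, was close to the 2.44% of all genes, as was that at an unadjusted p, 16.9% against 14.8%. In the list of ATF4 and its targets 2 of 26 rose, and the median change was 0.078. The estimate was positive in 15 of the 26 and negative in 11. Atf3, a stress transcription factor, was 7.80, 7.95, 7.77, 7.39 and 7.82 in control and 9.04, 8.74, 8.40, 8.97 and 8.63 in DKO (change 1.01 ± 0.13 SE, adjusted p = 0.00284). Nupr1, a stress protein abundant in injured pancreas, was 11.89, 11.82, 11.63, 12.22 and 11.45 in control and 12.56, 12.40, 12.41, 12.42 and 12.47 in DKO (change 0.65 ± 0.12 SE, adjusted p = 0.0178). In both genes every DKO array lay above every control array. Atf3 and Nupr1 are also induced by stresses other than lack of amino acids. Asns, Trib3, Ddit3 and the other 21 listed genes did not pass. Of these, Ddit3 (0.41) and Trib3 (0.45) had adjusted p-values of 0.164 and 0.248. Asns went the other way, at -0.12 (adjusted p = 0.326).

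Of 9 carrier partners, trafficking and glutathione genes 1 rose, Nedd4l, a ubiquitin ligase that removes transporters and channels from the membrane. It was 9.52, 9.37, 9.23, 9.25 and 9.24 in control and 9.73, 9.60, 9.66, 9.90 and 9.72 in DKO, so the groups did not overlap (change 0.40 ± 0.07 SE, adjusted p = 0.0173). The calls of Nupr1 and Nedd4l ended without control replicate 3 (adjusted p = 0.0551 and 0.0540) and without control replicate 2 and DKO replicate 4 together (0.103 and 0.0805), and that of Nupr1 also without moderated variance (0.0661). Both calls also ended in the fit blocked by replicate number, although same-numbered arrays share only a number. Cltrn, the partner that takes Slc6a19 to the membrane, differed by -0.51 and did not pass (adjusted p = 0.210).

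None of the genes in the remaining 4 lists passed by limma. Of 13 eIF2 kinase and eIF2 pathway genes (3 at an unadjusted p of 0.05), the smallest p belonged to Eif2ak3, the endoplasmic reticulum kinase PERK. It was 10.42, 10.69, 10.75, 10.72 and 10.11 in control and 11.23, 11.05, 10.97, 10.90 and 11 in DKO, 0.49 higher with no overlap (adjusted p = 0.0623). It passed without the dimmest 50% of genes (0.0388), with trend and robust variance (0.0498) and with the Xist level as a covariate (0.0282). It did not pass without any 1 array, where the adjusted p was 0.0654 to 0.127. Of 31 lysosomal mTORC1 sensing genes (4 at an unadjusted p of 0.05) the smallest p belonged to Lamtor2, a subunit of the Ragulator anchor. It was 8.5, 8.48, 8.75, 8.42 and 8.51 in control and 8.17, 8.08, 8.36, 8.31 and 8.35 in DKO, a change of -0.28 with no overlap (adjusted p = 0.10). Among 17 cytosolic aminoacyl-tRNA synthetases (2 at an unadjusted p of 0.05) it was Wars, the tryptophan enzyme, which interferon also induces. Its level was 11.55, 11.15, 11.12, 11.02 and 10.68 in control and 10.11, 10.41, 10.20, 10.97 and 10.72 in DKO, a change of -0.62 with overlap (adjusted p = 0.131). Of 22 other amino acid and peptide carriers (3 at an unadjusted p of 0.05) it was Slc25a22, a mitochondrial glutamate carrier, at 7.82, 7.96, 7.91, 7.70 and 8.0 in control and 7.80, 7.48, 7.64, 7.76 and 7.73 in DKO, a change of -0.19 with overlap (adjusted p = 0.265).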

How the data were processed

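RNA of 10 mouse pancreas samples was measured on arrays. The submitters' processing notes name Affymetrix Expression Console; which version and options it ran with is not given in the sources used here. As deposited by the authors, the values are log2 intensities per transcript cluster (2.79 to 13.94), and no step was added to them. Of 35556 clusters, the 21789 with 1 symbol in the platform annotation were kept, and the brightest cluster over all 10 arrays stood for a gene. The contrast of DKO with control used lmFit and eBayes of limma 3.58.1 (R 4.3.3), two-sided, and p-values were adjusted by Benjamini-Hochberg over 19938 genes. The fit was first tested on simulated data. It recovered 73.1% of planted changes of 0.5, 98.5% of those of 1 and 100% of those of 2. There were 12 false calls among the genes left unchanged, and 0 when no change was planted. Intervals use 10.96 degrees of freedom. Correlations with the ATF4 list were tested with 100000 permutations of arrays. Deviations were permuted over all 10 arrays, although those of a group are tied by its mean, so these p-values are approximate. The number of arrays limits the precision.

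The genes given with values per array were those past the threshold, the smallest p of each role group, the 5 largest estimates in each direction, Slc3a1, Slc3a2, Slc7a2, Slc38a5 and Slc43a1, and, from the other lists, those past the threshold or with the smallest p. The remaining values were chosen after they were seen, including those of Slc7a5, Slc6a12, Slc7a10, Slc36a2, Slc38a4, Slc6a20a, Trib3, Ddit3, Asns, Cltrn, Alas2 and Slc4a1. The members and lists were chosen with earlier results of these data known. The correlation of members with the ATF4 list was added after the data were seen. Alternatives changed the scaling, dim-gene filter, variance model, clusters per gene, covariates, threshold and arrays used. The 5 correlations between deviations of same-numbered arrays, -0.267 to 0.29, gave no sign of pairing.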

Additional observations from a re-analysis of the deposited data

Results flagged for a closer look

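In 8 of 128 groups of 5 arrays (6.25%) 1 array stood far from the other 4, where chance flags about 1 in 20. In DKO replicate 4, Slc36a1 was 9.81 against 9.17 to 9.35 in the other DKO arrays, and Slc38a5 was 9.51 against 10.21 to 10.45. In DKO replicate 2, Slc38a6 was 8.97 against 8.34 to 8.46, and Slc7a6os was 8.21 against 8.55 to 8.64. In DKO replicate 1, the array with high hepatocyte genes, Slc6a12 was 7.68 against 6.08 to 6.50. The other 3 were small gaps: Slc6a8 was 8.75 in control replicate 4 against 8.90 to 8.93, Slc7a13 was 5.29 in control replicate 3 against 5.16 to 5.18, and Slc6a19os was 5.65 in control replicate 5 against 5.49 to 5.53.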

How the results depend on the processing

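Over 21 alternatives and 71 genes, 1446 values were compared, of which 1381 kept direction and side of the threshold, 9 lost a call, 3 gained one and 53 turned sign, in 16 genes, none in a called fit. Slc38a10 was the 1 member called and was lost (0 members lower) at an adjusted p of 0.01, with the replicate block (adjusted p = 0.0907, with Nupr1 at 0.0618 and Nedd4l at 0.0907) and without control replicate 2 and DKO replicate 4 together. In those settings 1 of the pathway list genes passed, higher in DKO, and leaving out 1 array gave 1 (without control replicate 3) to 4. The same-numbered arrays share only a number. Called genes numbered 154 higher and 9 lower at 0.01, 652 and 174 at 0.10, 162 and 16 with the replicate block, 146 and 5 without those 2 arrays, 264 and 34 without moderated variance, 271 higher after subtraction of array medians and 46 lower with the Xist covariate. Without 1 array there were 232 to 372 higher and 28 to 64 lower, and 1 member lower each time. Signs turned, with no call, without control replicate 2 and DKO replicate 4 for Slc1a4 (-0.1021), Slc1a5 (-0.1101), Slc36a3 (0.0362), Slc36a4 (-0.0012) and Slc7a1 (-0.0338); after subtraction of medians for Slc1a6 (-0.012), Slc36a4 (-0.0354), Slc7a1 (-0.0306), Slc7a12 (-0.0145) and Slc7a15 (-0.0175); after quantile normalization for Slc36a4 (-0.0244), Slc38a11 (0.0155), Slc3a2 (0.0128) and Slc7a1 (-0.0116); with array weights for Slc36a4 (-0.0132), Slc38a9 (0.073) and Slc7a1 (-0.003); and with the Xist covariate for Slc36a4 (-0.009). Without control replicate 2 and DKO replicate 4, Slc38a11 (-0.0794), Slc3a2 (-0.068) and Slc7a15 (0.0458) kept their sign. Leaving out 1 array gave -0.0519 to 0.1561 for Slc1a4, -0.0596 to 0.1316 for Slc1a5, -0.016 to 0.0781 for Slc1a6, -0.1462 to 0.1453 for Slc36a2, -0.111 to 0.0045 for Slc36a3, -0.0319 to 0.0321 for Slc36a4, -0.0568 to 0.04 for Slc38a11, -0.1877 to 0.0386 for Slc38a4, -0.073 to 0.1102 for Slc38a9, -0.0542 to 0.0162 for Slc3a2, -0.2167 to 0.1827 for Slc6a12, -0.0702 to 0.0169 for Slc6a21, -0.0277 to 0.0625 for Slc7a1, -0.1517 to 0.0776 for Slc7a10, -0.0038 to 0.0406 for Slc7a15. The cause was not tested. For 15 members the level lay within the silent range in both groups.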
